A study of Mus musculus with 12 samples.

Results

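The 6 genes described here encode parts of the contractile apparatus and of the energy and calcium supply of striated muscle. They are Myh7, Actn3, Flnc, Casq1, Car3 and Eno3, and they were followed across the 6 culture groups of a microarray study of primary mouse melanocytes. These 6 genes are among 8102 genes with a named probe, and were selected on their higher intensity in normoxia in ATF2 mutant cultures given 4-OHT than in WT cultures, in an earlier analysis of the same arrays. That contrast is therefore given below as a description without a test, as is every comparison that uses its arrays. The 6 genes had 7 named probes, 2 of them for Car3, and all 7 passed the filter on dim probes, which kept a probe that was above background (detection p under 0.01) on any array. A gene is represented by its brighter probe.

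Expression was measured on 12 Mouse-6 BeadChip arrays, 2 per group, and the groups were ATF2 mutant cultures with 4-OHT in hypoxia and in normoxia, ATF2 mutant cultures without 4-OHT in hypoxia and in normoxia, and WT cultures without 4-OHT in hypoxia and in normoxia. Hypoxia was 12 h at 1% oxygen before RNA was isolated. All cultures were primary melanocytes, by the labels of the strain background FVB/129/OlaHsd/C57Bl/6, and all received doxycycline, which switches on a mutant N-Ras transgene. By the methods of the study the mice also lacked Ink4a in every group and carried Cre fused to the estrogen receptor under the tyrosinase promoter, which is active in melanocytes, so that 4-OHT (4-hydroxytamoxifen) removes floxed exons of Atf2 and leaves an ATF2 without its DNA-binding domain. Mutant cultures without 4-OHT are labelled ATF2-/- as well, although by this design they should keep the floxed exons, and no array of WT cultures with 4-OHT was analysed here. The methods describe cultures from the skin of newborn pups with geneticin to remove fibroblasts. The study also reports, without showing the data, that immunostaining found no keratinocytes or fibroblasts in its melanocyte samples. The methods speak of biological and technical replicates, 2 of each, without saying which arrays these are, so p-values measure only the spread between these arrays, which may be technical. The labels also do not tie the hypoxia arrays, or those with 4-OHT, to the same cultures or animals as the arrays they are compared with, so that treatment and source culture cannot be told apart.

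Striated muscle contracts when myosin of the thick filament pulls on actin of the thin filament. The thin filaments are anchored in the Z-disc by alpha-actinins, filamin C links the Z-disc and the cell membrane to actin, and calcium released from the sarcoplasmic reticulum starts each contraction. Melanocytes are pigment cells of the neural crest and are not known for any of these structures.

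The arrays had 10878 to 13032 probes above background (detection p under 0.01), and their median intensity was 29 to 40.1. The correlation between the 2 arrays of a group was lowest in mutant cultures with 4-OHT in normoxia (0.9512, with 1250 probes differing at least 2-fold between the arrays) and 0.9689 to 0.9945 in the other groups. The probe for Atf2 was not above background on any of the 12 arrays and could not be used to check the genotype labels. Xist was above background on all 8 mutant arrays and on no WT array, and the Y-linked Eif2s3y on no mutant array and on all 4 WT arrays, so that genotype and sex of the cultures cannot be told apart in any comparison of mutant with WT. The 4 melanocyte markers with a named probe (Dct, Gpnmb, Cd63 and Trpm1) were above background on every array. Because each array reads a whole culture, fewer cells of a type and less RNA per cell cannot be told apart in any value below.

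By the RefSeq annotation of mouse build GRCm38.p6 the genes lie at chr14:54970684-54994626 (Myh7, gene ID 140781), chr19:4861216-4877909 (Actn3, 11474), chr6:29433153-29461889 (Flnc, 68794), chr1:172209894-172219895 (Casq1, 12372), chr3:14863538-14872381 (Car3, 12350) and chr11:70653125-70662513 (Eno3, 13808), on 6 different chromosomes. The position of each probe within its transcript is not given in the sources used here. Because the genes moved together on the arrays, promoters are shown for the 4 genes that the RefSeq promoter table lists, each covering 250 bases before and 50 bases after an annotated start. Capitals mark matches, on either strand, to motifs known from muscle promoters (the E-box CANNTG, the M-CAT element CATTCC, MEF2 and CArG), to sites bound by ATF2 and its partners (the CRE core TGACG and the AP-1 site TGANTCA) and to the core of the hypoxia element, ACGTG. The windows are chr14:54994577-54994876 on the minus strand (Myh7), chr6:29432903-29433202 on the plus strand (Flnc), chr1:172219846-172220145 on the minus strand (Casq1) and chr11:70656926-70657225 on the plus strand (Eno3). The Eno3 window lies at a start inside the listed gene, not at its outer end.
Myh7: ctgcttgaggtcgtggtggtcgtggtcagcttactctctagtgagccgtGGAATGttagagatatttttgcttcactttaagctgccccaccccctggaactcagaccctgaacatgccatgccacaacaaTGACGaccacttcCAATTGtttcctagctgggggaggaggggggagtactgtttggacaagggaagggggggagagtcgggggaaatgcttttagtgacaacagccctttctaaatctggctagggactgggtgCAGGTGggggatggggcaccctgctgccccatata
Flnc: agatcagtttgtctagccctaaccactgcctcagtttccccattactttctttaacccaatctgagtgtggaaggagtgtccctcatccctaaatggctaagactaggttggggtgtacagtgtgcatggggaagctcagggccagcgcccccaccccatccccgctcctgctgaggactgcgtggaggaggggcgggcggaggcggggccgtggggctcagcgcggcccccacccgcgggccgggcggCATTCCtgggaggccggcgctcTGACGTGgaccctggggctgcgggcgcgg
Casq1: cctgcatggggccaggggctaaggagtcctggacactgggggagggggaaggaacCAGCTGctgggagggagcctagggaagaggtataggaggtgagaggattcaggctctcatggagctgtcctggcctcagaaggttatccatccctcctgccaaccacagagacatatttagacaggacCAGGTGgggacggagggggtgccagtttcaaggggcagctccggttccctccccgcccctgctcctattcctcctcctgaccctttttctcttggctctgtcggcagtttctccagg
Eno3: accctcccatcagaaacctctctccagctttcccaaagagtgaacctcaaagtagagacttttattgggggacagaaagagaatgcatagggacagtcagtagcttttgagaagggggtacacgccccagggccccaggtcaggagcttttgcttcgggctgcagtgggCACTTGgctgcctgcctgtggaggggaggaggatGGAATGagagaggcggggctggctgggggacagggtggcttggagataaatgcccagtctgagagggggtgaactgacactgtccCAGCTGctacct
The windows of Myh7, Casq1 and Eno3 held 2 E-boxes each and that of Flnc 0, and 72.3% of the 32851 promoters in the table held at least 1. The M-CAT letters occurred once (1 match) in Myh7, Flnc and Eno3, against 14.7% of all promoters, and the CRE core once (1 match) in Myh7 and Flnc, against 20.8%. In Flnc the CRE core overlapped the only match to ACGTG, a core that 19.6% of all promoters held. No AP-1, MEF2 or CArG match was found in the 4 windows, against 7.81%, 3.19% and 1.63% of all promoters. A match describes the letters of the window and is not evidence of a bound site.

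Myh7 encodes the beta myosin heavy chain, the motor of slow muscle fibres and of the heart. Its probe read 805 and 930 in mutant cultures with 4-OHT in hypoxia (deposited intensity, replicates 1 and 2), and 1430 and 692 in the same cultures in normoxia. In mutant cultures without 4-OHT it read 28.7 and 36.7 in hypoxia, against 1281 and 1539 in normoxia. WT cultures gave 28.5 and 30.1 in hypoxia, and 22.6 and 38.6 in normoxia. The 6 arrays of 3 mutant groups were thus high, while mutant cultures without 4-OHT in hypoxia lay with WT, and none of those 6 low arrays was above background. On the normalized log2 scale the 3 high groups averaged 9.65 ± 0.08 (with 4-OHT, hypoxia), 10.02 ± 0.99 (with 4-OHT, normoxia) and 10.39 ± 0.23 (without 4-OHT, normoxia; SD, n = 2 each), and neighbours in this order overlapped in their arrays.

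Actn3 encodes alpha-actinin-3, which cross-links actin in the Z-disc of fast fibres. The same 3 mutant groups were high and did not separate from each other. The probe read 185 and 189 in mutant cultures with 4-OHT in hypoxia and 193 and 132 in normoxia. In mutant cultures without 4-OHT it read 37.8 and 42.2 in hypoxia, against 193 and 200.04 in normoxia. WT cultures gave 33.4 and 39.0 in hypoxia, and 34.8 and 42.1 in normoxia. None of the 6 low arrays was above background.

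Flnc, the gene of filamin C, followed another pattern, since it was high in all 4 mutant groups. It read 1025 and 1173 in mutant cultures with 4-OHT in hypoxia, and 854 and 731 in normoxia. Mutant cultures without 4-OHT read 573 and 779 in hypoxia, against 1142 and 1688 in normoxia. In WT cultures it read 93.2 and 142 in hypoxia, against 45.3 and 64.7 in normoxia, where 1 of 2 arrays was above background. No WT array reached any mutant array, and after normalization none of the neighbouring groups in the order of levels overlapped. The order was mutant without 4-OHT in normoxia (log2 10.37 ± 0.00), mutant with 4-OHT in hypoxia (10.01 ± 0.10) and in normoxia (9.63 ± 0.33), mutant without 4-OHT in hypoxia (9.35 ± 0.02), WT in hypoxia (6.59 ± 0.22) and WT in normoxia (5.37 ± 0.15; SD, n = 2 each).

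**Figure D1:**
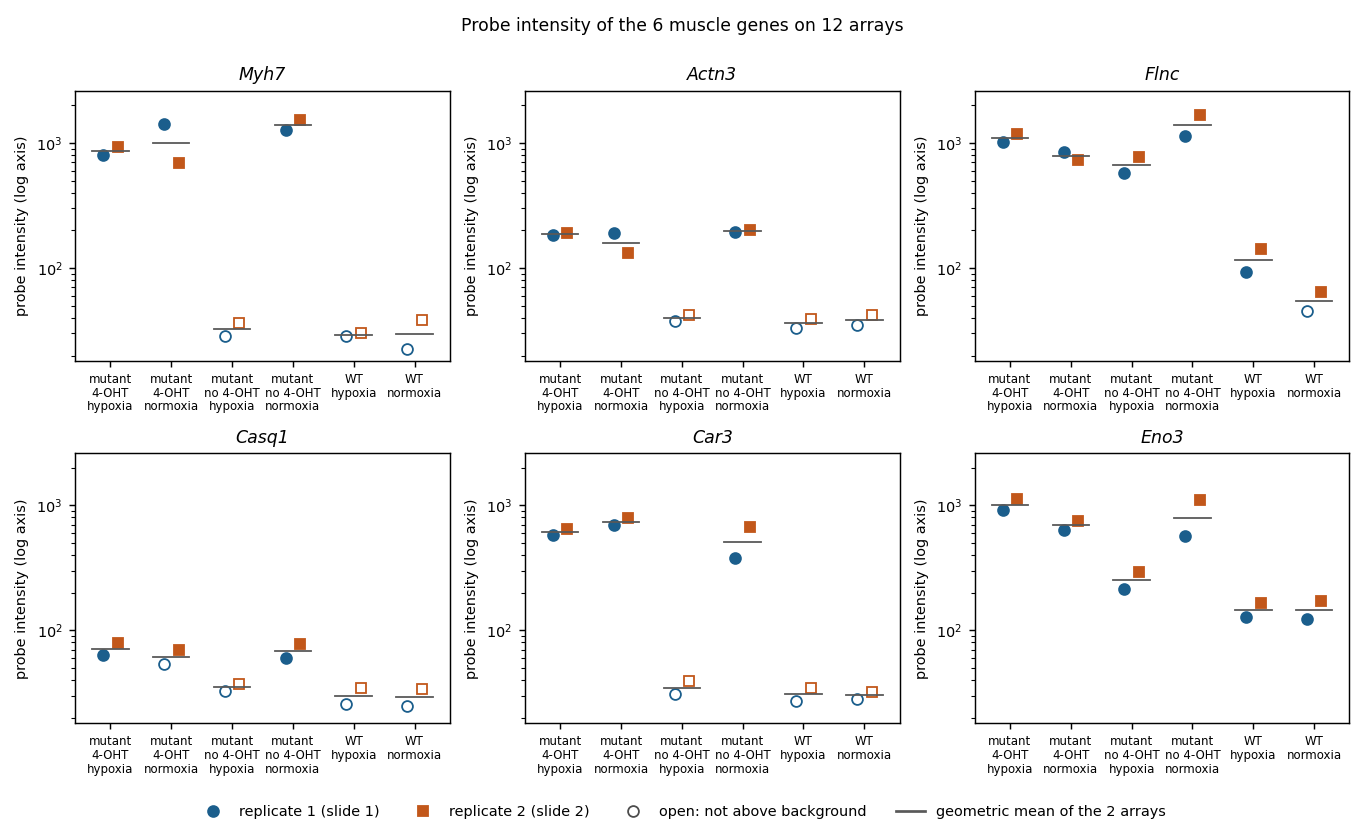
Deposited probe intensity (log axis) of the 6 genes on the 12 arrays, by culture group, with circles for replicate 1, squares for replicate 2, filled symbols above background and a line at the geometric mean of the 2 arrays. Myh7, Actn3, Casq1 and Car3 lie near background in mutant cultures without 4-OHT in hypoxia and in both WT groups, whereas Flnc (573 and 779) and Eno3 (215 and 295) keep a level above WT in that mutant group.

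Casq1 encodes calsequestrin 1, the calcium store protein of the sarcoplasmic reticulum in fast fibres. Its probe read 63.7 and 79.8 in mutant cultures with 4-OHT in hypoxia, and 53.5 and 69.5 in normoxia, where 1 of 2 arrays was above background. In mutant cultures without 4-OHT it read 32.8 and 37.3 in hypoxia, against 59.8 and 77.8 in normoxia. WT cultures gave 25.9 and 34.7 in hypoxia, and 25.0 and 34.1 in normoxia. The groups followed Myh7 and Actn3, within a narrower range of intensity.

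Car3 encodes carbonic anhydrase 3, a cytosolic enzyme abundant in slow muscle fibres and in fat. Its brighter probe read 573 and 650.1 in mutant cultures with 4-OHT in hypoxia, and 698 and 787 in normoxia. In mutant cultures without 4-OHT it read 30.8 and 39.2 in hypoxia, against 380 and 675 in normoxia, and in WT cultures 27.4 and 34.3 in hypoxia and 28.0 and 32.4 in normoxia. Its dimmer probe was higher in the same groups, although 1 of 2 arrays was not above background with 4-OHT in hypoxia and without 4-OHT in normoxia. It read 48.1 and 103 (with 4-OHT, hypoxia), 60.6 and 102 (with 4-OHT, normoxia), 28.9 and 30.4 (without 4-OHT, hypoxia) and 41.5 and 85.6 (without 4-OHT, normoxia) in mutant cultures. In WT cultures the dimmer probe read 23.8 to 33.0 and was not above background. Over the 12 arrays the probes correlated at r = 0.91, a description over arrays that share groups.

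Eno3 encodes beta-enolase, the muscle form of the glycolytic enzyme enolase, and was above background on all 12 arrays. It read 909 and 1122 in mutant cultures with 4-OHT in hypoxia, and 631 and 752 in normoxia. In mutant cultures without 4-OHT it read 215 and 295 in hypoxia, against 569 and 1110.1 in normoxia. WT cultures gave 127 and 166 in hypoxia, and 123 and 172 in normoxia. On the log2 scale mutant cultures without 4-OHT in hypoxia (7.89 ± 0.01) lay between the other mutant groups (9.43 to 9.88) and WT cultures in hypoxia (6.97 ± 0.05) and in normoxia (7.13 ± 0.06; SD, n = 2 each), with no overlap on either side.

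In the contrast on which the genes were selected, that of 4-OHT mutant cultures with WT in normoxia, the log2 differences were 5.62 (Myh7), 2.48 (Actn3), 4.27 (Flnc), 1.02 (Casq1), 5.15 (Car3) and 2.30 (Eno3), with a median of 3.37 against -0.03 over all kept probes. Mutant cultures without 4-OHT also stood above WT in normoxia, with differences of 5.99, 2.81, 5.01, 1.32, 4.53 and 2.44 for the same genes in the same order. These contrasts share the WT arrays. The differences of mutant cultures given 4-OHT from those left without it, in normoxia, ran from -0.74 (Flnc) to 0.62 (Car3), with a median of -0.31.

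The 4 comparisons that use no array of the selecting contrast were tested (contrasts of one limma fit to all 12 arrays, Benjamini-Hochberg adjustment over 14906 kept probes, threshold 0.05). The arrays of the selecting contrast enter this fit through the pooled spread, though not through the differences. The first comparison repeats the selecting contrast in hypoxia, with the same split by genotype and sex. Myh7, Actn3, Casq1 and Car3 were above background on mutant arrays only, so the counts of members called are not separate from the selection. The 4 comparisons are also not independent of each other. The first and the second share the WT arrays in hypoxia, the first and the third the mutant arrays with 4-OHT in hypoxia, and the second, the third and the fourth the mutant arrays without 4-OHT in hypoxia. Where a gene was above background in only 1 of 2 groups, the difference is also given as a lower bound, in which the dim group's mean is taken over, per array, the higher of the probe's own signal and the lowest signal among probes above background. These bounds rest on the background estimate used here. With the detection p-values as deposited, the differences of the dim genes were smaller than the bounds.

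The first comparison asks how mutant cultures with 4-OHT differed from WT cultures in hypoxia. All 6 genes rose (6 of 6, against 6.82% of all kept probes called higher), with a median log2 difference of 3.16 against -0.05 over all kept probes. Myh7 was at least 30.6-fold higher (log2 difference 5.27, 95% interval 4.50 to 6.04, adjusted p = 2.43e-06), Car3 at least 21.7-fold (4.75, 4.41 to 5.08, adjusted p = 9.29e-09) and Actn3 at least 6.33-fold (2.79, 2.11 to 3.47, adjusted p = 0.000128). Flnc was 10.7-fold higher (3.42, 2.99 to 3.84, adjusted p = 8.17e-07) and Eno3 7.54-fold (2.91, 2.56 to 3.27, adjusted p = 7.19e-07). Casq1 was at least 2.01-fold higher (1.33, 0.97 to 1.69, adjusted p = 0.000284), and the dimmer Car3 probe differed by 1.30 (adjusted p = 0.0222). The difference had the same sign within both slides (arrays with the same replicate number) for each of the 6 genes. With the detection p-values used as deposited, where the estimated background SD was 100 to 178 and not 5.86 to 7.0, the differences were 0.13 (Casq1), 0.575 (Actn3, adjusted p = 0.0791), 2.33 (Car3), 2.83 (Eno3), 2.97 (Myh7) and 3.09 (Flnc), and Actn3 was the only one of the 6 that was no longer called.

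The second comparison, mutant cultures without 4-OHT against WT cultures in hypoxia, separated the genes. Only Flnc and Eno3 rose (2 of 6, against 12.4% of all kept probes called higher). Flnc was 6.76-fold higher (2.76, 2.33 to 3.18, adjusted p = 7.99e-06) and Eno3 1.89-fold (0.92, 0.56 to 1.28, adjusted p = 0.00227). Myh7, Actn3, Casq1 and Car3 were not above background in either group, and their log2 differences were 0.05 (-0.72 to 0.81), 0.13 (-0.55 to 0.82), 0.12 (-0.24 to 0.48) and 0.09 (-0.25 to 0.43), with adjusted p = 0.949, 0.808, 0.656 and 0.727. At these intensities a difference below the background of the arrays was not detectable.

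The third comparison asks how mutant cultures with 4-OHT differed from those without it in hypoxia. All 6 genes rose (6 of 6, against 13.6% called higher), with a median log2 difference of 2.33 against -0.02 over all kept probes. Myh7 was at least 28.1-fold higher with 4-OHT than without (5.22, 4.46 to 5.99, adjusted p = 2.14e-06), Car3 at least 19.9-fold (4.66, 4.32 to 4.99, adjusted p = 1.35e-08), Actn3 at least 5.80-fold (2.66, 1.98 to 3.34, adjusted p = 0.000119) and Casq1 at least 1.84-fold (1.21, 0.85 to 1.57, adjusted p = 0.000325). Eno3 was 3.98-fold higher (1.99, 1.64 to 2.35, adjusted p = 9.71e-06). Flnc moved least, at 1.58-fold (0.66, 0.23 to 1.08, adjusted p = 0.0267). With the detection p-values as deposited the differences were 2.96 (Myh7), 2.32 (Car3), 0.56 (Actn3), 0.12 (Casq1), 2.33 (Eno3) and 0.80 (Flnc), all 6 still called. The call of Flnc was lost without the filter on dim probes (adjusted p = 0.0511), without replicate 1 of mutant cultures with 4-OHT in hypoxia (0.114) and without either array of mutant cultures without 4-OHT in hypoxia (0.11 and 0.128).

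**Figure D2:**
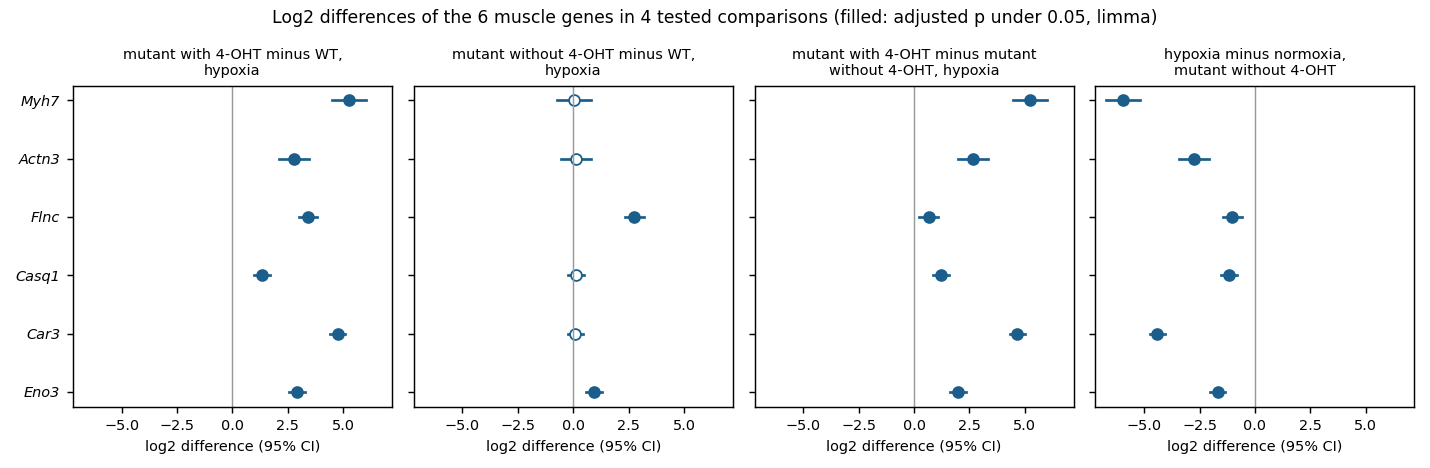
Log2 difference with its 95% confidence interval for the 6 genes in the 4 tested comparisons, filled where the adjusted p was under 0.05. All 6 genes lie above 0 in the first and the third panel and below 0 in the fourth, and in the second panel Flnc (2.76) and Eno3 (0.92) alone are filled.

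The fourth comparison asks how mutant cultures without 4-OHT differed in hypoxia from normoxia. All 6 genes fell (6 of 6, against 6.64% of all kept probes called lower), with a median log2 difference of -2.22 against 0.04 over all kept probes. Myh7 was at least 47.0-fold lower in hypoxia (-5.97, -6.73 to -5.20, adjusted p = 1.15e-06), Car3 at least 16.9-fold lower (-4.42, -4.76 to -4.08, adjusted p = 2.25e-08), Actn3 at least 6.21-fold lower (-2.76, -3.44 to -2.08, adjusted p = 0.000173) and Casq1 at least 1.79-fold lower (-1.17, -1.53 to -0.81, adjusted p = 0.000845). Eno3 differed by -1.69 (-2.04 to -1.33, adjusted p = 5.64e-05) and Flnc by -1.02 (-1.45 to -0.60, adjusted p = 0.00587), and both were still above background in hypoxia. The dimmer Car3 probe differed by -0.97 (adjusted p = 0.0787, and 0.0318 with the slide as a block). Flnc was not called without replicate 1 or replicate 2 of mutant cultures without 4-OHT in hypoxia (adjusted p = 0.0506 and 0.0574), nor Actn3 with the detection p-values as deposited (-0.63, adjusted p = 0.0551). That setting gave -3.82 for Myh7, -2.01 for Car3 and -0.11 for Casq1.

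In the other cultures the differences of hypoxia from normoxia were smaller for each gene except Flnc in WT, and are given without a test because their normoxia arrays belong to the selecting contrast. In mutant cultures with 4-OHT the log2 differences of hypoxia from normoxia were -0.37 (Myh7), 0.23 (Actn3), 0.37 (Flnc), 0.33 (Casq1), -0.38 (Car3) and 0.45 (Eno3). For Myh7 the 2 slides differed in sign, at -1.01 and 0.27. In WT cultures 4 genes were not above background in either condition. Flnc was higher in WT cultures in hypoxia than in normoxia, by 1.18 and 1.28 on the 2 slides, and Eno3 was lower by little on both, at -0.15 and -0.17.

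**Figure D3:**
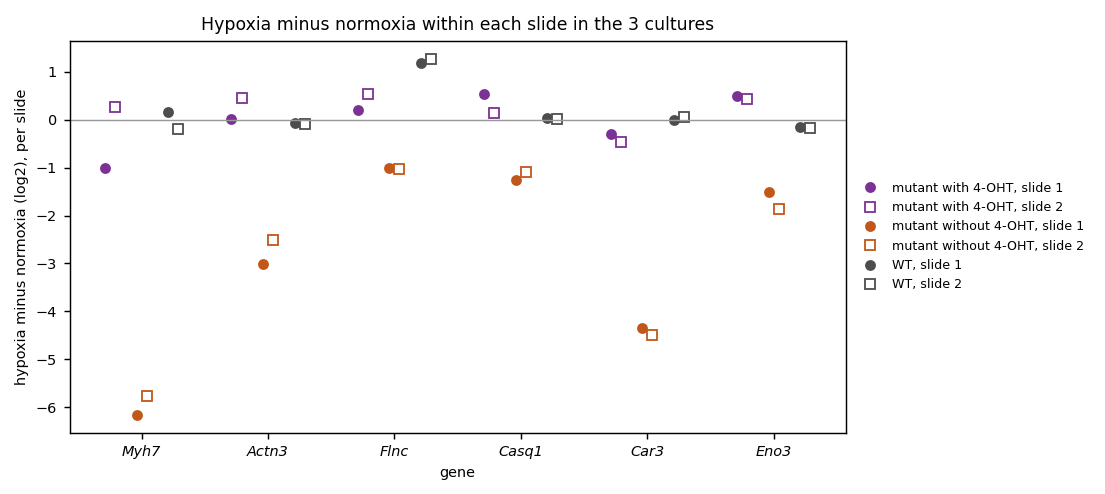
Log2 difference of hypoxia minus normoxia within each slide for the 6 genes, in mutant cultures with 4-OHT, mutant cultures without 4-OHT and WT cultures (filled circles, slide 1; open squares, slide 2). All 12 points of mutant cultures without 4-OHT lie at or below -1.01, and Flnc in WT cultures lies at 1.18 and 1.28.

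Among themselves the genes followed each other over the 12 arrays, which describes 12 points in high and low groups, 4 of them used to select the genes. Myh7 and Actn3 correlated at r = 0.989, Myh7 and Car3 at 0.986 and Casq1 and Eno3 at 0.966. Flnc was the least like the others, at 0.768 (Car3) to 0.878 (Eno3), since it was high in mutant cultures without 4-OHT in hypoxia where 4 of the genes were at background.

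The rest of the muscle programme was read from lists of 145 further genes in 8 roles, of which 37 had a named probe and 20 a kept probe. The lists were drawn up with earlier results of these data known. Listed genes above background on no array are not among the 20. Mybpc1, Smyd1, Klhl40, Dysf, Ryr1, Srl, Chrna1 and Chrng were above background on no WT array and passed the filter only through mutant arrays. Sspn and Cox7a1 were above background on no mutant array and passed it only through WT arrays. The counts below describe the 20 genes and are not separate support for the members. For mutant cultures given 4-OHT, set against WT in hypoxia, 10 of the 20 rose and 1 fell, against 12.7% of all kept probes called in either direction, and their median log2 difference was 0.58 against -0.05 over all kept probes. In mutant cultures without 4-OHT against WT cultures in hypoxia, 2 rose and 3 fell, against 24.7% called in either direction, with a median of -0.03 against -0.02. With 4-OHT against without in hypoxia, 10 rose and 0 fell, against 13.6% of all kept probes called higher (median 0.62 against -0.02), and in hypoxia against normoxia in mutant cultures without 4-OHT 0 rose and 10 fell, against 6.64% called lower (median -0.82 against 0.04).

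By role, the acetylcholine receptor subunits of the neuromuscular junction moved most. Chrna1, the alpha subunit, read (brighter of 2 probes) 2594 and 4868 in mutant cultures with 4-OHT in hypoxia, 26.3 and 29.4 in mutant cultures without 4-OHT in hypoxia and 26.6 and 31.1 in WT cultures in hypoxia. It was at least 125-fold higher with 4-OHT than in WT (adjusted p = 4.66e-09), and Chrng, the gamma subunit of immature muscle, at least 86.8-fold (adjusted p = 4.61e-09). Both were at background in mutant cultures without 4-OHT in hypoxia, where Chrna1 was at least 95.4-fold and Chrng at least 80.7-fold lower than in normoxia. Ncam1, a cell adhesion molecule, was above background in all groups. It rose by 1.55 in mutant cultures with 4-OHT against WT in hypoxia (adjusted p = 0.00204), and differed by -1.60 in mutant cultures without 4-OHT against WT (adjusted p = 0.00115) and by -3.77 in hypoxia against normoxia in mutant cultures without 4-OHT (adjusted p = 3.22e-06).

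Of the calcium genes, Ryr1, the release channel of the sarcoplasmic reticulum, and Srl, its luminal calcium-binding protein sarcalumenin, had the same high and low groups as Casq1. Ryr1 read 233 and 264 in mutant cultures with 4-OHT in hypoxia, 22.7 and 31.0 in mutant cultures without 4-OHT in hypoxia and 23.9 and 30.5 in WT cultures in hypoxia. In mutant cultures with 4-OHT in hypoxia Ryr1 was at least 8.57-fold higher than in WT (adjusted p = 2.57e-07) and Srl at least 4.42-fold higher (adjusted p = 5.55e-05). Clcn1, the muscle chloride channel, differed by 0.03 (adjusted p = 0.968).

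Of the filament and Z-disc genes, Mybpc1, a myosin-binding protein of the thick filament, was at least 2.72-fold higher in mutant cultures with 4-OHT than in WT in hypoxia (adjusted p = 0.000119). Klhl40, which stabilizes thin filament proteins, differed by 0.96 (adjusted p = 0.0147), with 1 of 2 mutant arrays above background. Tpm3, a tropomyosin that many cell types use, differed by -0.10 (adjusted p = 0.82), and the thick filament methyltransferase Smyd1 by -0.17 (adjusted p = 0.607). Dtna, alpha-dystrobrevin of the dystrophin complex, rose by 1.27 (adjusted p = 0.00292). Sspn, sarcospan of the same complex, went the other way, with 21.9 and 37.0 in mutant cultures with 4-OHT in hypoxia and 27.0 and 25.9 in mutant cultures without 4-OHT in hypoxia, against 566 and 758 in WT cultures in hypoxia. It was at least 18.1-fold lower with 4-OHT (adjusted p = 9.29e-09) and at least 21.4-fold lower without (adjusted p = 9.1e-08) than in WT. Sspn passed the filter on dim probes only through the WT arrays, where it was high.

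Of the metabolic genes, Fabp3, the fatty acid-binding protein of heart and oxidative muscle, was, like Flnc and Eno3, higher in mutant cultures without 4-OHT than in WT in hypoxia. It read 428 and 497 in mutant cultures with 4-OHT in hypoxia, 173 and 215 in mutant cultures without 4-OHT in hypoxia and 50.2 and 54.3 in WT cultures in hypoxia. In normoxia WT cultures read 187 and 211, a range that overlapped that of mutant cultures without 4-OHT in hypoxia. Against WT in hypoxia it rose by 3.50 with 4-OHT (adjusted p = 4.12e-06) and by 2.24 without (adjusted p = 0.000125). Pfkm, the muscle phosphofructokinase, differed by 0.09 with 4-OHT (adjusted p = 0.835) and by -0.89 without (adjusted p = 0.00405). Of 7 regulators with a named probe only Mef2c, a transcription factor of muscle and other lineages, was above background on any array. It rose against WT in hypoxia both with 4-OHT (0.71, adjusted p = 0.0199) and without (0.67, adjusted p = 0.0166). With 4-OHT against without in hypoxia Mef2c differed by 0.04 (adjusted p = 0.893). In mutant cultures without 4-OHT it was lower in hypoxia than in normoxia (-1.02, adjusted p = 0.00292).

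**Figure D4:**
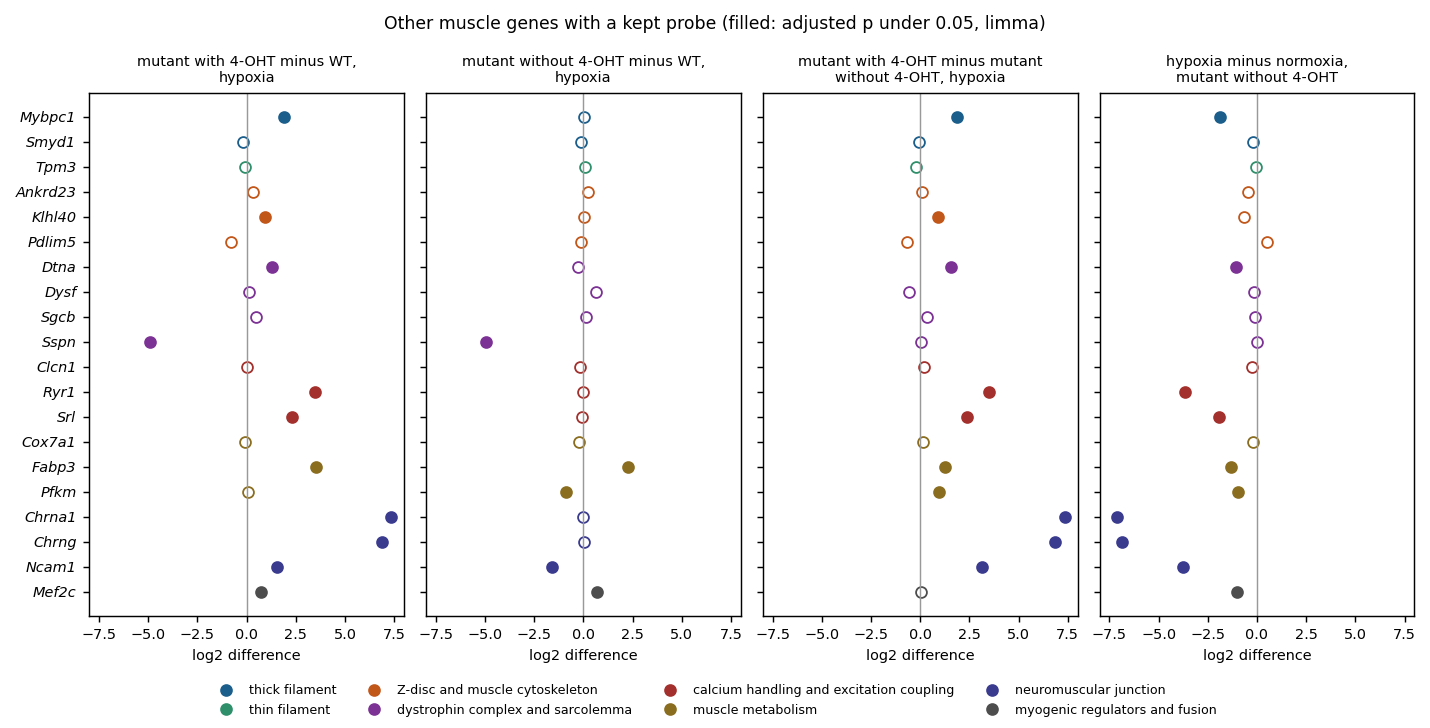
Log2 difference of the 20 other muscle genes with a kept probe in the 4 tested comparisons, coloured by role and filled where the adjusted p was under 0.05. Chrna1, Chrng and Ryr1 lie far to the right in the first and the third panel and far to the left in the fourth, while Sspn lies to the left in both comparisons with WT.

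Of the relatives of the members that other tissues use, 3 had a kept probe. Eno1, the ubiquitous enolase, read 3192 and 3442 in mutant cultures with 4-OHT in hypoxia, 3445 and 4503 in mutant cultures without 4-OHT in hypoxia and 3890 and 5637 in WT cultures in hypoxia, and passed the test in none of the 4 comparisons (adjusted p = 0.0703 to 0.289). Eno2, the neuronal enolase, rose like Eno3 in mutant cultures without 4-OHT against WT in hypoxia, by 0.93 (adjusted p = 0.0042). In the other comparisons of mutant cultures without 4-OHT its direction was opposite to that of Eno3, since it rose in hypoxia against normoxia by 0.88 (adjusted p = 0.00958) and was lower by 0.69 with 4-OHT than without in hypoxia (log2 difference -0.69, adjusted p = 0.0157). Myh10, a non-muscle myosin, rose with 4-OHT against without in hypoxia by 1.00 (adjusted p = 0.0135) and by 0.72 against WT, which did not pass (adjusted p = 0.103). Car1, Car5b, Car6 and Car8 were not above background on any array, nor was the cardiac myosin Myh6, the closest relative of Myh7. The sequences of the probes are not given in the sources used here, so that a signal from a related transcript was not tested.

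Markers of other cell types moved with the members in part. None of the 12 skeletal muscle markers (Myod1, Myog and Des among them) had a named probe. The 3 cardiac markers with a probe (Myh6, Gata4 and Myl7) were not above background on any array. Of 2 smooth muscle markers, Acta2 was above background in the 3 mutant groups where the members were high and in no other group, with 321 and 377 in mutant cultures with 4-OHT in hypoxia, 30.5 and 48.9 in mutant cultures without 4-OHT in hypoxia and 34.3 and 43.3 in WT cultures in hypoxia, while Cnn1 was not above background on any array. Of 8 fibroblast markers, 3 to 4 were above background on the arrays of those 3 mutant groups, with a summed normalized signal of 762 to 1055, against 2 and a sum of 884 to 932 in mutant cultures without 4-OHT in hypoxia and 2 and a sum of 477 to 680 in WT cultures. Among them Col6a1 was at least 4.74-fold higher in mutant cultures with 4-OHT than in WT in hypoxia (adjusted p = 5.14e-05) and Dcn at least 2.88-fold (adjusted p = 4.0e-05), while S100a4 (0.47, adjusted p = 0.593) and Col5a1 (0.25, adjusted p = 0.429) were not called, and Col1a1, Col1a2, Col3a1 and Postn were not above background on any array. Acta2 and Col6a1 passed the filter on dim probes only through those 3 mutant groups, so their values are not separate support for the members. Dcn did not follow the members in normoxia, where it differed from WT by 0.40 with 4-OHT and by -0.11 without (not tested). In WT cultures Dcn was above background in normoxia and lower in hypoxia, with a log2 difference of -1.20 that was not tested. The 4 melanocyte markers had a summed signal of 35830 to 39800 in the 3 mutant groups, 34860 to 35380 in mutant cultures without 4-OHT in hypoxia and 35750 to 39140 in WT cultures, and none of the 4 was called in any of the 4 comparisons. The sum is carried by Dct, Gpnmb and Cd63. Their group means lay at log2 13.3 to 13.8, where quantile normalization sets values by rank, so the sum does not measure the share of melanocytes. Trpm1 read 215 and 1356 in mutant cultures without 4-OHT in normoxia, against 2387 and 2742 in WT cultures in normoxia, a log2 difference of -2.45 that was not tested. Keratinocyte markers (4 with a probe) summed to 220 to 362 in the 3 mutant groups, 141 to 144 in mutant cultures without 4-OHT in hypoxia and 314 to 580 in WT cultures, and Schwann cell and neural crest markers (5 with a probe) to 1144 to 4394, 900.1 to 1169 and 1792 to 3482 in the same groups. Krt17 was called in all 4 comparisons (log2 differences -0.99, -3.42, 2.43 and -1.68 in order) and Krt10 in none. Pmp22 (-1.70, adjusted p = 0.0323) and S100b (-1.16, adjusted p = 0.0137) were lower in mutant cultures without 4-OHT than in WT in hypoxia. Pmp22 was also higher with 4-OHT than without in hypoxia (1.66, adjusted p = 0.0309). The 1 adipocyte marker with a probe, Fabp4, was not above background on any array. The part of other cells in the members' values was not tested.

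The genes most like the 6 members were sought among 724 named genes with an SD of at least 0.5 on the log2 scale, by Pearson's r over the 12 arrays with the mean of the members' standardized values. The 5 highest were Vcam1 (r = 0.9885), Kcnk13 (0.9876), Tgfb2 (0.987), Chrng (0.9854) and Srpk3 (0.9851). Vcam1, a cell adhesion molecule, read 545 and 609 in mutant cultures with 4-OHT in hypoxia, 70.2 and 98.8 in mutant cultures without 4-OHT in hypoxia and 47.0 and 64.1 in WT cultures in hypoxia. Srpk3, a muscle protein kinase, read 206 and 231, 30.1 and 34.2, and 26.1 and 34.5 in the same groups. Kcnk13, a potassium channel, and Tgfb2, a growth factor of the TGF-beta family, rose by 2.25 and 2.32 in mutant cultures with 4-OHT against WT in hypoxia (adjusted p = 4.37e-06 and 1.19e-05), values that are not independent of the choice of these genes.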

How the data were processed

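RNA was labelled and hybridised to 12 Mouse-6 BeadChip arrays, and the sources do not say which arrays share a culture. The deposited non-normalized intensities are mean bead intensities per probe from BeadStudio on a linear scale, without background subtraction, and the authors' detection p-values compare each probe with negative control beads. A further deposited set, used as an alternative, holds background-subtracted intensities that the authors normalized by cubic spline. Aligners and builds do not apply, and the number after scl0 in a probe's ID was read as an NCBI gene ID. The RefSeq table held 82.6% of the 11857 such numbers and 46% of them after 1 was added, and 21% of 46628 probes were named.

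Background correction (its mean and SD inferred from detection p-values), quantile normalization and log2 were done with neqc (limma 3.58.1, R 4.3.3; offset 16). Before that, 60 values of 5 probes whose p lay above 0 but under 1 step of the grid (1 in 1603) were set to 0, which gave a background SD of 5.86 to 7.0, against 100 to 178 with the p-values as deposited. Log2 values and differences were computed here from the deposited intensities. The 14906 probes with a detection p under 0.01 on any array were kept. One limma fit with 6 group means and 6 residual degrees of freedom gave moderated tests, adjusted by Benjamini-Hochberg, and was tested on simulated data first. Arrays of 1 replicate number share the number before the letter in their labels, which was read here as a slide. Their deviations from the group means correlated between -0.225 and 0.6 (median 0.198, with 12 of 15 pairs of groups over 0.1).

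The members, gene lists and tests were chosen with earlier results of these data known. Named were all members, their relatives and listed muscle genes that were called (at most 3 per list and comparison), markers, and the 5 genes most like the members. Some listed genes that were called in no comparison (Tpm3, Smyd1, Clcn1, Dysf and Cox7a1) were named as well. Alternatives were the detection p-values as deposited, no background correction, the authors' normalized values (floor 16), an offset of 50, no filter, detection in both replicates, a block for the slide, only the arrays compared, and leaving out each array. The number of arrays limits the precision. Figures were drawn with matplotlib 3.10.9 in Python 3.11.15.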

Additional observations from a re-analysis of the deposited data

Results flagged for a closer look

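Several members moved one way on both slides in one culture and the other way on both slides in another. None of these differences between cultures was tested, since each uses arrays of the contrast on which the genes were selected. Hypoxia minus normoxia was above 0 in mutant cultures with 4-OHT and below 0 in mutant cultures without 4-OHT for Actn3 (difference between the cultures 2.99 on the log2 scale), Flnc (1.40), Casq1 (1.5) and Eno3 (2.14). For Actn3 the positive side was small on slide 1, at 0.02, against -3.01 in mutant cultures without 4-OHT. For Casq1 it was small on slide 2, at 0.13, against -1.09.

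For Flnc, mutant cultures without 4-OHT (-1.01 and -1.04) also went against WT cultures (1.18 and 1.28), a difference of -2.25. For Eno3, mutant cultures with 4-OHT (0.48 and 0.42) went against WT cultures (-0.15 and -0.17), a difference of 0.62.

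The same arrays seen by 4-OHT gave opposite signs for Actn3 (difference of hypoxia minus normoxia 2.99), Flnc (1.40) and Casq1 (1.5), with 4-OHT cultures above those without in hypoxia and below them in normoxia. For Flnc these were 0.71 and 0.60 in hypoxia, against -0.51 and -0.97 in normoxia. The normoxia side was smaller for Actn3 (-0.20 and -0.46), whose arrays overlapped between the 2 groups. For Casq1 it was -0.48 and -0.10, with 1 of 2 arrays with 4-OHT above background.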

How the results depend on the processing

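Over 20 alternative settings the number of members called in each of the 4 comparisons stayed within 1.5 times its value, no direction was reversed, and 8 single calls of members were lost, all of Flnc or Actn3 and all given in the report. Leaving out each array gave 6 to 6 members called for mutant with 4-OHT against WT in hypoxia, 2 to 2 for mutant without 4-OHT against WT, 5 to 6 for 4-OHT against none in hypoxia and 5 to 6 for hypoxia against normoxia without 4-OHT. In such a fit the lone array of a group is assumed to vary like the other groups. Calls over all kept probes depended more on the arrays. For mutant with 4-OHT against WT in hypoxia 1889 probes were called, and 938 to 2635 when 1 array was left out. For mutant without 4-OHT against WT the counts were 3687 and 1720 to 5008, and a fit to only the arrays compared called 6735. They were 4265 and 2371 to 5486 for 4-OHT against none in hypoxia, and 1827 and 748 to 2730 for hypoxia against normoxia without 4-OHT. With the detection p-values as deposited, 3 listed muscle genes were called for mutant without 4-OHT against WT in hypoxia, against 5. With the slide as a block, the paired fit called 6, 2, 6 and 6 members, 12, 6, 11 and 10 listed muscle genes and 2256, 4328, 4869 and 2277 probes in the 4 comparisons, and it changed no member's call except that of the dimmer Car3 probe. The cause of these shifts was not tested. Values of genes at background move with the estimate of the background, and the bounds on their folds hold for the estimate used here only.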

Other observations

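Fabp3 and Eno1 from the lists, picked after their values were seen, differed between hypoxia and normoxia in WT cultures, as values without a test. Fabp3 read 50.2 and 54.3 in WT cultures in hypoxia, against 187 and 211 in normoxia, a log2 difference of -2.41 and -2.39 on the 2 slides. In mutant cultures with 4-OHT the same difference was 0.32 and -0.26. Eno1 read 3890 and 5637 in WT cultures in hypoxia, against 1732 and 2313 in normoxia, and was higher in hypoxia on both slides in mutant cultures with 4-OHT too (0.59 and 0.76).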
